A study of Mus musculus with 10 samples.

Results

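The mitochondrial ribosomal protein genes were examined for binding of the glucocorticoid receptor (GR) and of lysine-specific demethylase 1 (LSD1), and for the histone marks H3K9me1 and H3K9me2, the mono- and dimethylated forms of lysine 9 on histone H3, in skeletal muscle of fed and starved mice. Members were taken by name alone, as protein-coding genes of mouse build GRCm38 whose RefSeq symbol is Mrpl or Mrps followed by a number. The rule gave 78 of 21000 genes with an NM_ transcript, of which 49 carried the large subunit prefix Mrpl and 29 the small subunit prefix Mrps. No measured value entered the choice. The split follows the symbol alone, and the place of each protein in the ribosome was not checked.

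Mitochondria carry their own ribosomes, which translate the few proteins encoded by mitochondrial DNA, all of them parts of the respiratory chain. The ribosomal RNAs come from the mitochondrial genome, whereas every protein of the mitochondrial ribosome is encoded in the nucleus, made in the cytosol and imported. Nuclear genes for mitochondrial proteins are known targets of the activators nuclear respiratory factor 1 (NRF1) and GABP, a member of the ETS family, and skeletal muscle is a tissue rich in mitochondria. GR is the nuclear receptor for glucocorticoids, whose secretion rises with fasting, and LSD1 removes methyl groups from histone H3 and from other proteins.

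Chromatin immunoprecipitation with sequencing (ChIP-seq) had been carried out on nuclei of skeletal muscle from wild-type C57BL/6J mice, either fed or kept without food for 24 h. An age of 10 weeks is stated in the labels, and the text of the study gives another age for the fed animals. Each condition was represented by 1 library for each of GR, LSD1, H3K9me1, H3K9me2 and input chromatin, 10 libraries in all, so no difference between conditions has a replicate check. The study's reporting form gives a minimum of mice per condition and of repeats for ChIP-seq, but not how many mice entered each library. Library codes were shared between fed and starved muscle for GR and for LSD1, but not for H3K9me1 or H3K9me2, and for the marks a difference of condition cannot be told apart from 1 of code.

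The 8 peak lists differed widely in length, from 6624 peaks in H3K9me2 starved to 171402 in H3K9me2 fed, with 14108 for GR fed, 37783 for GR starved, 16616 for LSD1 fed and 66332 for LSD1 starved. The study's text describes a far shorter LSD1 list after starvation than the deposited one, so that every LSD1 starved count here is a count of the deposited list, most of whose promoter peaks at members were called at lenient q-values. The depth behind a list is unknown. Of 7 marker genes of skeletal muscle, 5 carried a promoter peak in each of the GR and LSD1 lists (71.4%, interval 29.0 to 96.3%). Over all genes the shares ran from 15.1% in GR fed to 26.0% in GR starved. None of 5 marker genes of other tissues did in any of these 4 lists (interval up to 52.2% in each), as for 58.3% of all genes. Within 30 kb, LSD1 starved was near all 5 and GR starved near 2, against 81.8% and 65.2% of all genes. With so few genes these counts do not serve as a check of the tissue.

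A gene was counted in a list when the midpoint of a peak lay in its promoter window, from 1000 bp upstream to 100 bp downstream of any of its NM_ transcription start sites. For each peak the lists give the fold enrichment over input and a q-value, the false discovery rate of that peak against input, which says nothing of the variation between animals. Intervals given with a share of members are exact 95% binomial (Clopper-Pearson) intervals and cover counting error only, and genes that share a locus are not independent.

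The promoter sequences shown first are those in which the NRF1 motif, a palindrome of 10 bases, was found without a mismatch. Only 3 of the 78 members held it, all of the large subunit: Mrpl32, Mrpl39 and Mrpl9. The stretches were read from RefSeq GRCm38 and run 5′ to 3′ on the strand of the gene, with the motif in capitals and up to 30 bases on either side, none beyond the start site. They lie at chr13:14613085-14613154 on the minus strand for Mrpl32, at chr16:84735330-84735399 on the minus strand for Mrpl39 and at chr3:94443278-94443335 on the plus strand for Mrpl9.
Mrpl32: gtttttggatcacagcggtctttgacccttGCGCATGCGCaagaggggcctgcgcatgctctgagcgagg
Mrpl39: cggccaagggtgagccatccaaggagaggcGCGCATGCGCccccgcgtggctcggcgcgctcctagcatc
Mrpl9: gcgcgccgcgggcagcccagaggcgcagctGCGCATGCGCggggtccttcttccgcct
The motif began 87 bp upstream of the start site in Mrpl32, 125 bp upstream in Mrpl39 and 28 bp upstream in Mrpl9. In Mrpl39 it lay under a GR starved, an LSD1 fed and an LSD1 starved peak, in Mrpl32 under a GR starved peak, and in Mrpl9 under an LSD1 fed peak.

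Much more common was the ETS motif CCGGAAG, the core to which GABP binds, which was present in the promoter window of 39 members. GR fed was at 33.3% of these and at 23.1% of the 39 members without the motif. GR starved was at 51.3% and 38.5%, LSD1 fed at 46.2% and 43.6%, and LSD1 starved at 23.1% and 33.3%. Over all genes the shares were 24.4% with and 12.9% without it for GR fed, and 41.4% and 22.4% for GR starved. For LSD1 they were 42.9% and 21.3% in fed and 27.6% and 15.8% in starved muscle. Of 47 distinct sites in members, 32 in 28 genes lay under a GR or LSD1 peak (68.1%, interval 52.9 to 80.9%). This compared with 46.1% of the 5059 such sites over all genes, and the members' more frequent promoter peaks were not taken into account. Peaks of at least 2 of the 4 lists covered 11 (23.4%, 12.3 to 38.0%), against 21.1%, a share near that over all genes. The stretches below are those of the latter kind in which the motif lies wholly upstream of the start site, with the site farther from the start shown where a gene holds a pair. The capitals mark the motif on either strand. They lie at chr7:105811288-105811354 on the minus strand for Mrpl17, and on the plus strand at chr8:71464859-71464925 for Mrpl34, chr6:83109019-83109085 for Mrpl53 and chr13:99344708-99344774 for Mrps27.
Mrpl17: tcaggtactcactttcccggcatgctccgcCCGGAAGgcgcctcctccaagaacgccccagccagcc
Mrpl34: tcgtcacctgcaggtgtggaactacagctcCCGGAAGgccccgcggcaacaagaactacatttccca
Mrpl53: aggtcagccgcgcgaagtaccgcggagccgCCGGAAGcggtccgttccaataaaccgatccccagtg
Mrps27: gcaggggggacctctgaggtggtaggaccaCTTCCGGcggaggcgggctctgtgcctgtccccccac
The site of Mrps27, which encodes a pentatricopeptide repeat protein of the small subunit, was covered by peaks of GR fed (3.44-fold), GR starved (2.52) and LSD1 fed (3.79). That of Mrpl34 was covered by GR fed (2.68), GR starved (2.92) and LSD1 starved (3.09).

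GR and LSD1 peaks were found at the promoters of more mitochondrial ribosomal protein genes than of genes at large in all 4 lists. In fed muscle GR was at the promoter of 22 of 78 members (28.2%, interval 18.6 to 39.5%), against 15.1% of all genes. After starvation GR was at 35 members (44.9%, 33.6 to 56.6%), against 26.0%. LSD1 showed the same counts in the opposite order, with 35 members in fed muscle (44.9%, 33.6 to 56.6%) against 25.4% of all genes, and 22 members after starvation (28.2%, 18.6 to 39.5%) against 18.0%. In each of the 4 lists the interval of the members lay above the share over all genes, by the smallest margin in LSD1 starved.

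The 2 histone marks did not set the members apart in this way. H3K9me1 was at the promoter of 4 members in fed muscle (5.13%, 1.42 to 12.6%), against 2.08% of all genes, and of 4 after starvation (5.13%, 1.42 to 12.6%), against 3.2%. H3K9me2 was at 23 members in fed muscle (29.5%, 19.7 to 40.9%), against 24.4%, and at none after starvation (interval up to 4.62%), against 0.19%. The share over all genes lay within the interval of the members in each of these 4 lists.

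**Figure D1:**
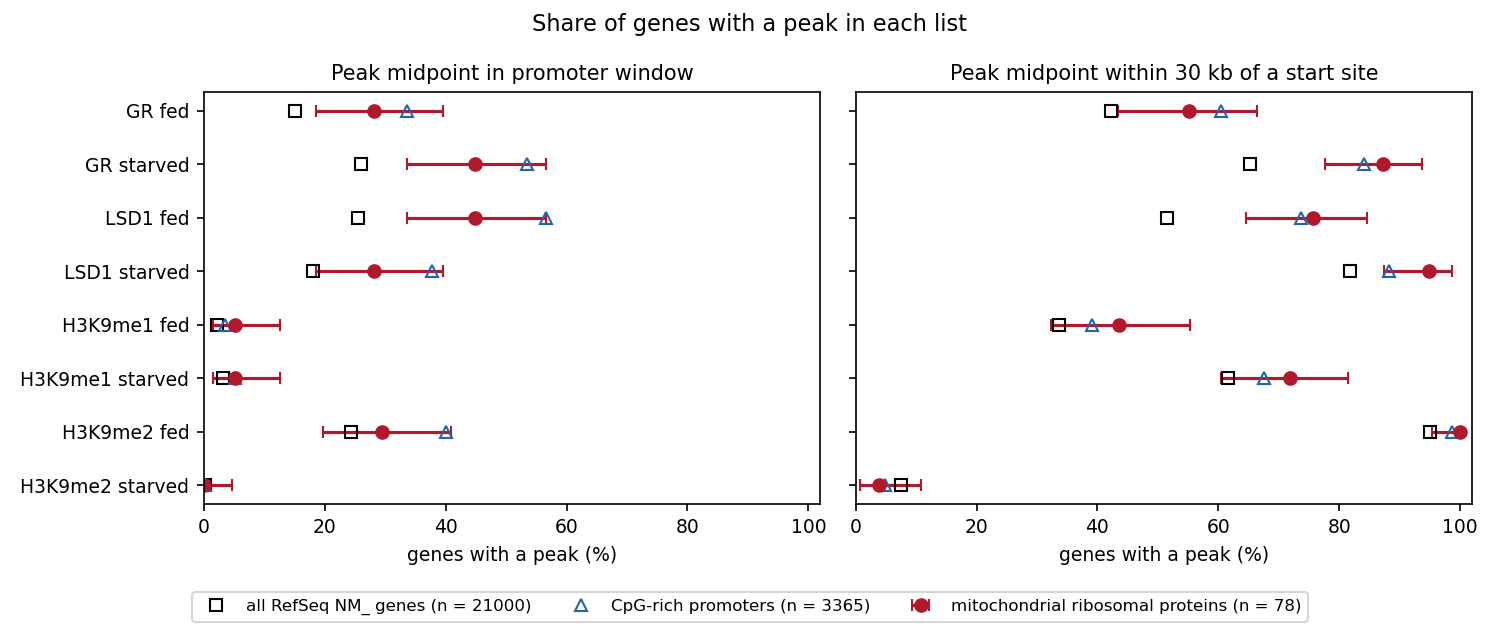
Percentage of genes with a peak midpoint in the promoter window (left) or within 30 kb of a start site (right) in each of the 8 lists. Filled circles are the 78 members with exact 95% binomial intervals, squares all 21000 RefSeq NM_ genes and triangles the 3365 genes with a CpG-rich promoter. At promoters the circles lie to the right of the squares in the 4 GR and LSD1 lists, between the squares and the triangles.

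The share over all genes includes many genes with CpG-poor promoters, so the 3365 genes whose promoter window was CpG-rich (GC share of at least 55% and an observed to expected CpG ratio of at least 0.65) serve as another yardstick. Of these, 33.5% carried GR in fed and 53.4% in starved muscle, and 56.7% carried LSD1 in fed and 37.7% in starved muscle. The members lay numerically below each of these 4 values. The value lay within the members' interval for GR in both conditions and for LSD1 after starvation. For LSD1 in fed muscle it barely passed the upper bound (56.67% against 56.56%). Only 15 of 78 members (19.2%) had a CpG-rich promoter by this measure, close to the 16.0% over all genes. The median GC share of the promoter window was 50.5% for members and for all genes alike, and the median CpG ratio was 0.578 against 0.472. Among the 15 CpG-rich members LSD1 was at 14 promoters in fed muscle, and none of the 15 lacked GR and LSD1 in all 4 lists (interval up to 21.8%), against 24.5% of all CpG-rich promoters.

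Promoter peaks of the members were of ordinary height. The median fold of the strongest promoter peak per gene was 2.92 for members and 3.04 for all genes in GR fed, 2.75 and 2.72 in GR starved, 3.95 and 4.00 in LSD1 fed, and 3.45 and 3.46 in LSD1 starved. Most of these peaks were called at lenient q-values. The median q-value was 0.0154 for members and 0.00573 for all genes in GR fed, and 0.0116 and 0.0107 in GR starved. For LSD1 it was 0.0152 and 0.0115 in fed and 0.0402 and 0.0425 in starved muscle. A q-value of 0.01 or less was reached by 8 of 22 members in GR fed and 17 of 35 in GR starved. In LSD1 it was reached by 13 of 35 in fed and 4 of 22 in starved muscle. Among all genes with a promoter peak, 1896 of 3171, 2652 of 5462, 2472 of 5337 and 707 of 3784 reached it in the same order. With only such peaks counted, the shares of members fell to 10.3%, 21.8%, 16.7% and 5.13%, against 9.03%, 12.7%, 11.8% and 3.39% of all genes, so that the share over all genes lay within the members' interval in 3 of the 4 lists (4.53 to 19.2%, 9.18 to 26.8% and 1.42 to 12.6% in GR fed, LSD1 fed and LSD1 starved) and below it in GR starved (13.2 to 32.6%).

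**Figure D2:**
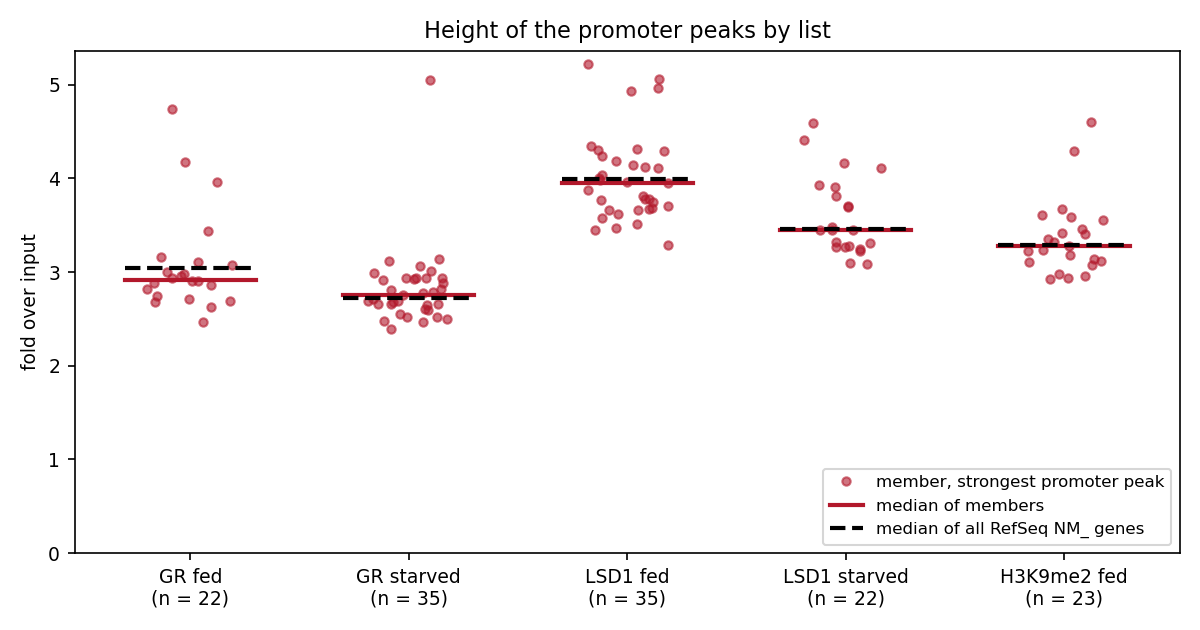
Fold over input (linear scale, from 0) of the strongest promoter peak of each member in the GR and LSD1 lists and in H3K9me2 fed. Points are members, solid lines the median of the members and dashed lines the median over all RefSeq NM_ genes with a promoter peak. The lines lie close together in every list, and a few members stand apart, such as Mrps24 in GR fed (4.75) and Mrpl41 in GR starved (5.05).

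The peaks lay close to the start site. With positions upstream given as negative, the median midpoint of members was at -110.5 bp for GR in fed and -111 bp in starved muscle, and at -46 bp and -122 bp for LSD1. Over all genes with a promoter peak the medians were -117, -112, -78 and -100 bp in the same order. Peaks of GR were longer than those of LSD1, with medians of 374 bp and 357 bp for GR in fed and starved muscle and 175 bp and 131 bp for LSD1.

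**Figure D3:**
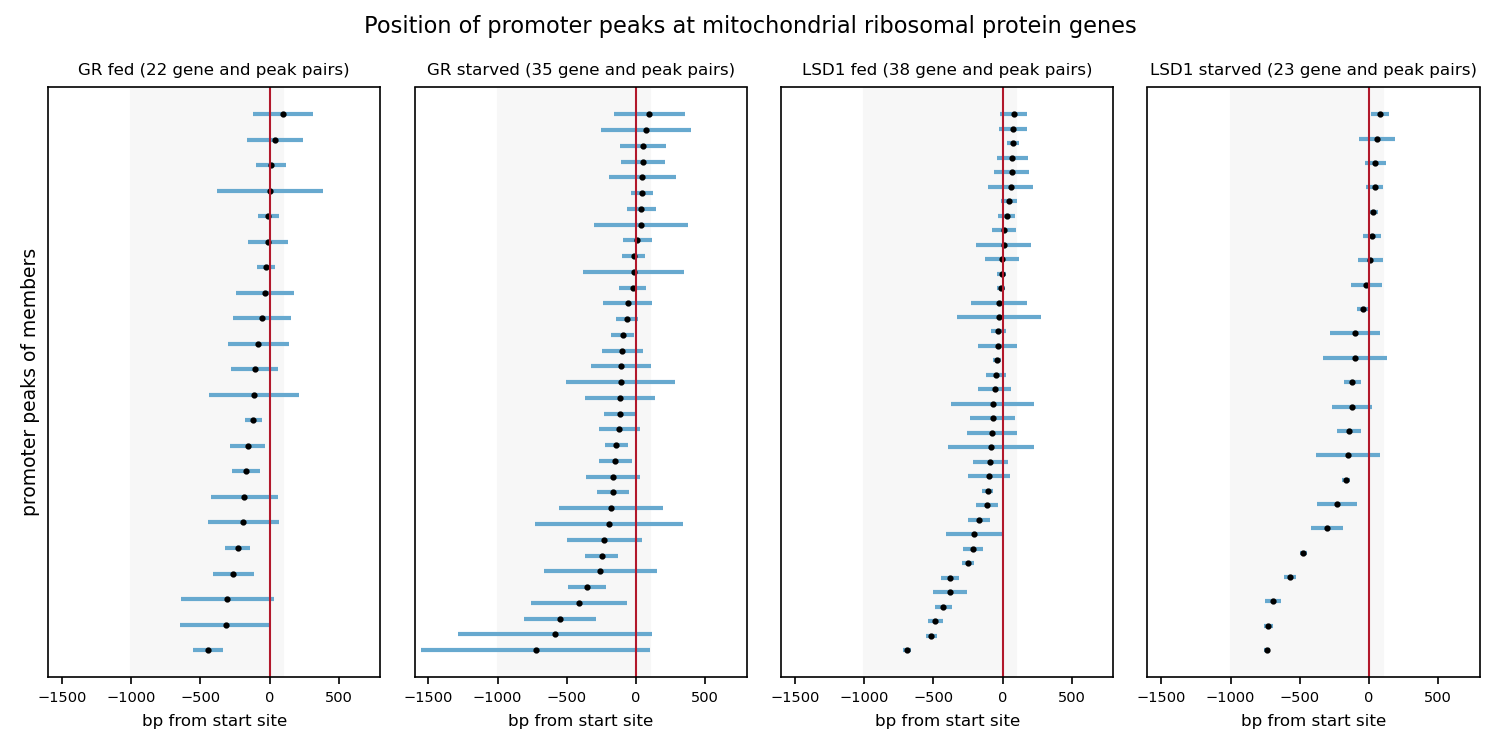
Extent of each promoter peak of the members relative to the start site, in bp along the gene. Each line is a peak and each dot its midpoint, sorted by position. The red line marks the start site and the shaded band the promoter window of 1000 bp upstream to 100 bp downstream. Midpoints crowd around the start site in all 4 lists, and the longest peaks are those of GR starved.

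Joint occupancy by GR and LSD1 was seen at 14 members in fed muscle (17.9%, 10.2 to 28.3%), against 10.6% of all genes, and at 11 members after starvation (14.1%, 7.26 to 23.8%), against 10.4%. Among CpG-rich promoters it was 27.9% in fed muscle, within the members' interval, and 26.9% after starvation, above it. Of the 22 members with GR in fed muscle, 14 also carried LSD1 (63.6%), compared with 70.0% of all genes with GR. After starvation it was 11 of 35 (31.4%) compared with 40.0%. CpG-rich promoters with GR carried LSD1 at 83.2% in fed and 50.3% in starved muscle. Both values were just above the members' intervals (40.7 to 82.8% and 16.9 to 49.3%). Members exceeded all genes also where 1 factor was called without the other. Of the 56 members without GR in fed muscle, 21 carried LSD1 (37.5%, 24.9 to 51.5%), against 17.5% of all such genes, and of the 43 without GR after starvation, 11 carried LSD1 (25.6%, 13.5 to 41.2%), against 10.3%. CpG-rich promoters without GR had 43.3% and 23.2%, each within the interval of the members.

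Taking the 4 GR and LSD1 lists together, 55 members appeared in at least 1 list, and 23 (29.5%, 19.7 to 40.9%) in none, against 58.3% of all genes in none. Presence in all 4 lists, in contrast, was no more common than among all genes, with 3 members (3.85%, 0.800 to 10.8%) against 4.69%, and far below the 14.7% of CpG-rich promoters. The members were instead spread over 2 or 3 lists (36 members, 46.2%, against 20.2% of all genes). The respiratory chain genes, also nuclear genes for mitochondrial proteins, had 8 of 88 (9.09%) in all 4 lists.

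The 3 members in all 4 lists were Mrpl39, Mrpl30 and Mrps6. Mrpl39, a protein found in mitochondrial but not in bacterial ribosomes, had a fold of 4.17 for GR in fed and 3.06 in starved muscle, and of 4.11 and 3.27 for LSD1, and it was the only one of the 3 with the NRF1 motif. Mrpl30, a homologue of a bacterial ribosomal protein, had folds of 3.11, 2.71, 4.14 and 3.69 in the same order. Mrps6, likewise with a bacterial homologue, had 3.08, 3.12, 3.88 and 3.48. In each of the 3 the highest or next to highest value was that of LSD1 fed, the list with the highest median fold at promoters of all genes.

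**Figure D4:**
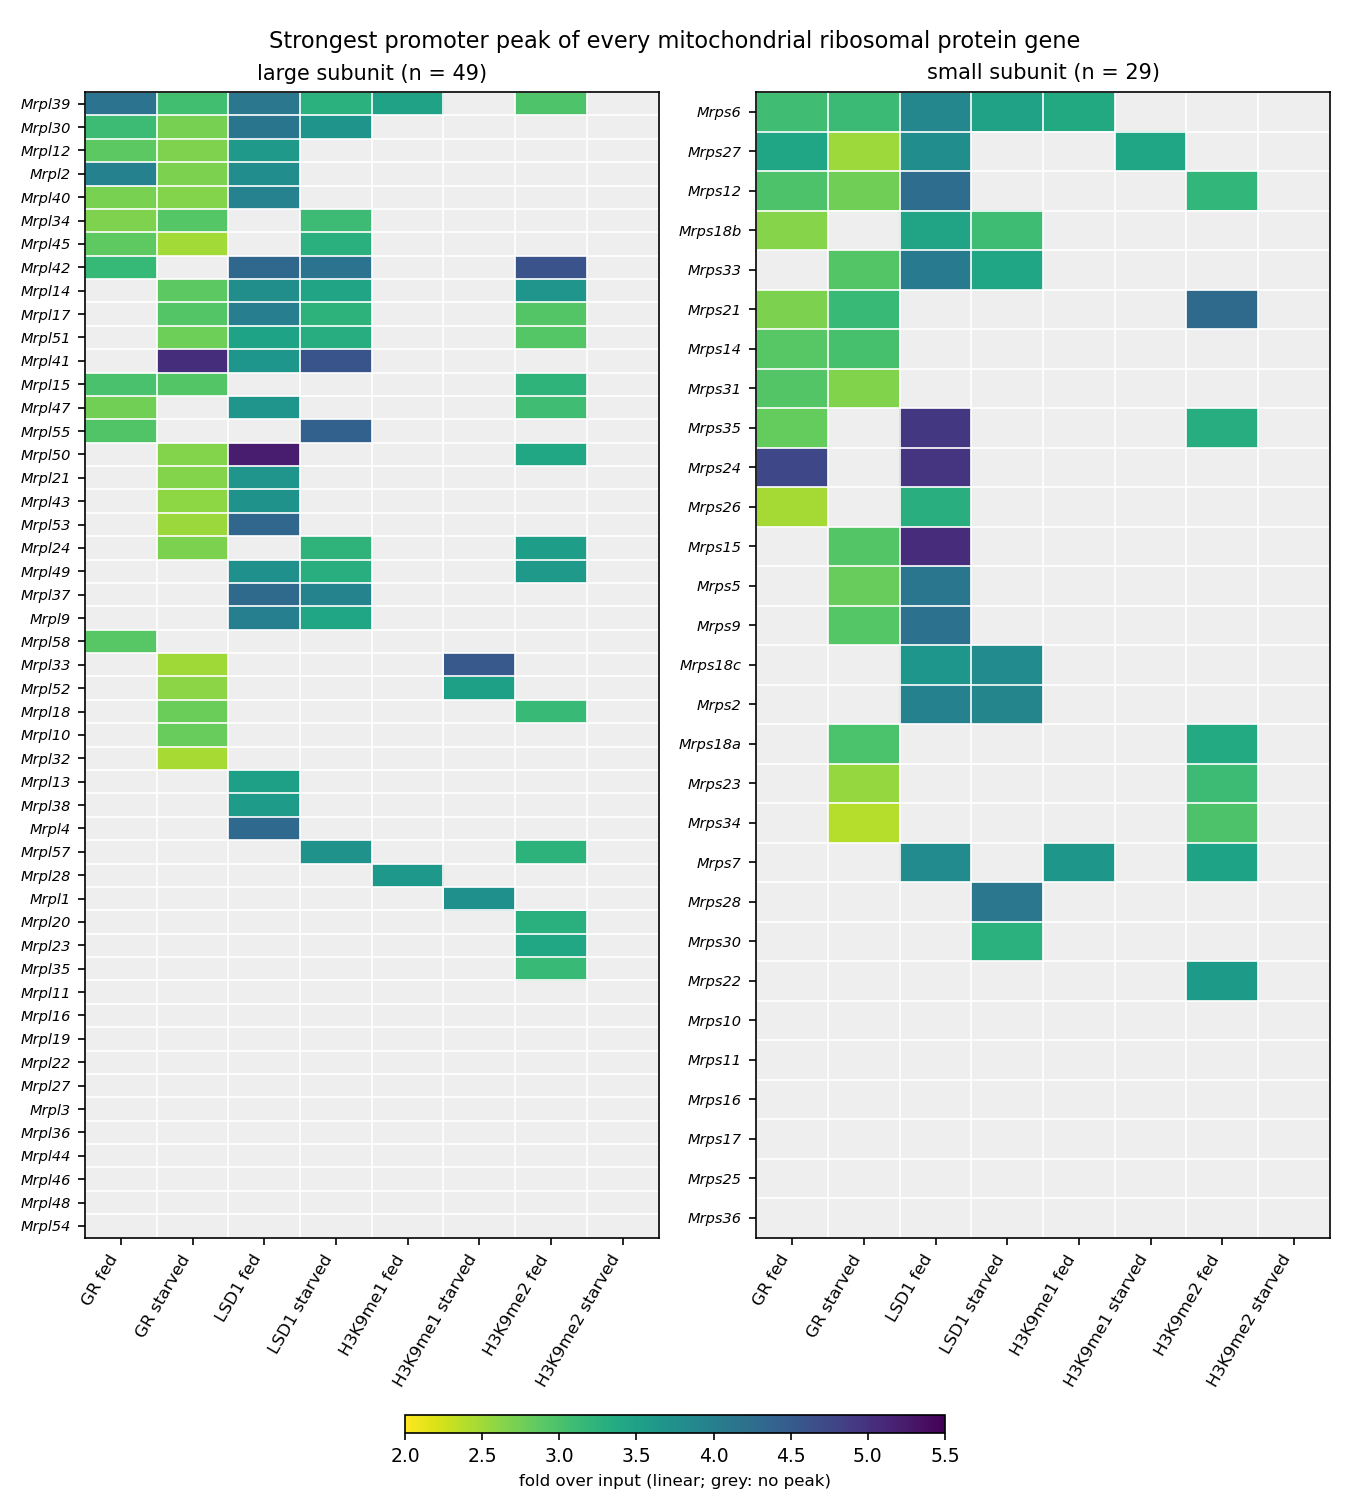
Fold over input of the strongest promoter peak of every member (rows) in each of the 8 lists (columns), with large subunit names on the left and small subunit names on the right, sorted by the number of GR and LSD1 lists. Grey cells have no peak midpoint in the promoter window. Few rows are filled across, and the last column, H3K9me2 starved, is empty.

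GR was retained at 14 members in fed and starved muscle (17.9%), against 11.0% of all genes. It was called only after starvation at 21 members (26.9%), against 15.0%, and only in fed muscle at 8 (10.3%), against 4.13%. LSD1 was called in both conditions at 15 members (19.2%), against 10.8%, only in fed muscle at 20 (25.6%), against 14.6%, and only after starvation at 7 (8.97%), against 7.17%. A call lost by this count is not always a lost peak, because 18 of the 22 GR fed promoter peaks of members were overlapped by a GR starved peak by at least 1 bp (81.8%, against 79.6% of all GR fed promoter peaks), although 14 members counted in both. For LSD1, 12 of 38 fed promoter peaks were overlapped by a starved one (31.6%), against 35.4% of all promoter peaks.

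Between fed and starved muscle the shares of GR and LSD1 differed in opposite directions, by 16.7 percentage points up for GR and by the same amount down for LSD1. Over all genes the shares also moved up by 10.9 points for GR and down for LSD1, from 25.4% to 18.0%. The GR starved list was much longer than the GR fed list, and the higher count was not seen at equal length. With the starved list cut to the length of the fed list by fold, 16 members carried GR after starvation against 22 in fed muscle, whereas LSD1, treated the same way, went from 35 members to 7. All genes moved in the same directions, from 15.1% to 10.5% for GR and from 25.4% to 4.98% for LSD1.

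LSD1 in fed muscle and GR after starvation were both called at 20 members (25.6%, 16.4 to 36.8%), against 15.6% of all genes. Of the 35 members with LSD1 in fed muscle these were 57.1%, against 61.5% of all genes with LSD1 there. In 7 members (8.97%), against 4.23% of all genes, no other GR or LSD1 list was involved, namely in Mrpl21, Mrpl43, Mrpl50, Mrpl53, Mrps5, Mrps9 and Mrps15. Mrpl50 had the highest LSD1 fed value of all members (fold 5.22, q = 0.000117, midpoint 39 bp upstream of the start site) and a modest GR starved peak (fold 2.66). Mrps15, a protein with a bacterial homologue that binds the small ribosomal RNA, was close to it, with 5.06 in LSD1 fed (q = 0.000113) and 2.94 in GR starved. Mrpl53 had 4.34 and 2.52, and Mrps5 had 4.12 and 2.82.

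Members with GR in both conditions and LSD1 in fed muscle were Mrpl2, Mrpl12, Mrpl40, Mrps12 and Mrps27. Mrpl12, which sits in the stalk that receives translation factors and is also known to bind the mitochondrial RNA polymerase, had a fold of 2.89 for GR in fed and 2.68 in starved muscle, and of 3.63 for LSD1 in fed muscle. Mrps12, the homologue of the bacterial protein of the decoding centre, had 2.98, 2.75 and, at the stronger of its LSD1 fed peaks, 4.24. Mrpl2, a homologue of a bacterial protein near the peptidyl transferase centre, stood out in GR fed with 3.96 (q = 2.6e-07) against 2.70 in GR starved and 3.78 in LSD1 fed.

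Of the remaining patterns, GR in both conditions with LSD1 after starvation was found for Mrpl34 and Mrpl45, and GR in both conditions alone for Mrpl15, Mrps14, Mrps21 and Mrps31. GR and LSD1 in fed muscle alone were found for Mrpl47, Mrps24, Mrps26 and Mrps35. Mrps24 held the highest GR fed fold among the promoter peaks of members (4.75, q = 2.86e-08), with an LSD1 fed peak of 4.97, and had no promoter call in starved muscle. Its GR starved peak had a midpoint 158 bp downstream of the start site (fold 2.97), beyond the window. Mrps35, found only in mitochondrial ribosomes, had 2.82 in GR fed and 4.93 in LSD1 fed.

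GR fed with LSD1 in both conditions was found for Mrpl42 and Mrps18b, and GR fed with LSD1 starved for Mrpl55. Mrpl42 had 3.16 in GR fed, 4.31 in LSD1 fed and 4.17 in LSD1 starved, and it was the member with the highest H3K9me2 fed value (4.60, q = 0.000177). GR starved with LSD1 in both conditions was found for Mrpl14, Mrpl17, Mrpl41, Mrpl51 and Mrps33, and GR starved with LSD1 starved for Mrpl24. GR fed alone was found for Mrpl58, a peptidyl-tRNA hydrolase that releases stalled chains and is built into the large subunit, with a fold of 2.91.

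GR starved alone was found for Mrpl10, Mrpl18, Mrpl32, Mrpl33, Mrpl52, Mrps18a, Mrps23 and Mrps34. Their folds ran from 2.40 in Mrps34 to 2.99 in Mrps18a. LSD1 alone was found in both conditions for Mrpl9, Mrpl37, Mrpl49, Mrps2 and Mrps18c, in fed muscle for Mrpl4, Mrpl13, Mrpl38 and Mrps7, and after starvation for Mrpl57, Mrps28 and Mrps30. Among these, Mrpl37 had 4.29 in fed and 3.93 in starved muscle, Mrpl4, the homologue of a bacterial protein lining the exit tunnel, had 4.30 in fed muscle, and Mrps28 had 4.11 after starvation. Mrps2 had 3.96 and 3.91, nearly equal in fed and starved muscle, Mrps7 had 3.82 in fed and Mrps30 had 3.27 in starved muscle.

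The 3 mitochondrial relatives of the bacterial protein S18 had 3 different patterns. Mrps18a carried GR starved alone (2.99), Mrps18b carried GR fed (2.63), LSD1 fed (3.45) and LSD1 starved (3.09), and Mrps18c carried LSD1 fed (3.67) and LSD1 starved (3.81). The peak calls at these genes had a list in common only for LSD1, in Mrps18b and Mrps18c, although a GR starved peak of Mrps18b (2.56) had its midpoint 142 bp downstream of the start, beyond the window.

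The 23 members without a GR or LSD1 promoter peak were Mrpl1, Mrpl3, Mrpl11, Mrpl16, Mrpl19, Mrpl20, Mrpl22, Mrpl23, Mrpl27, Mrpl28, Mrpl35, Mrpl36, Mrpl44, Mrpl46, Mrpl48, Mrpl54, Mrps10, Mrps11, Mrps16, Mrps17, Mrps22, Mrps25 and Mrps36. For 7 of them a peak midpoint lay up to 500 bp beyond the window. Mrpl44, a relative of RNase III, had GR starved (2.73) and LSD1 fed (3.73) peaks at 163 bp and 186 bp downstream of its start, and Mrps22 had a GR starved peak (2.71) at 243 bp. In 6 of the 23 an H3K9me1 or H3K9me2 peak was in the window, so 17 members had no promoter peak in any of the 8 lists. Mrpl11, a protein at the base of the stalk, and Mrps16 were among these 17. The counts of 7, 6 and 17 were not made over all genes, so they do not set the members apart.

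The large and the small subunit names were much alike in single lists. GR was at 12 of 49 Mrpl genes (24.5%) and 10 of 29 Mrps genes (34.5%) in fed muscle, and at 22 (44.9%) and 13 (44.8%) after starvation. LSD1 was at 21 (42.9%) and 14 (48.3%) in fed muscle, and at 15 (30.6%) and 7 (24.1%) after starvation. Joint occupancy was 7 of 49 (14.3%, 5.94 to 27.2%) and 7 of 29 (24.1%, 10.3 to 43.5%) in fed muscle, and 9 of 49 (18.4%, 8.76 to 32.0%) and 2 of 29 (6.90%, 0.846 to 22.8%) after starvation. The order of the Mrpl and Mrps names turned with the condition, but the intervals overlapped in each.

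A feature that the choice by name did not use was a neighbour in the opposite direction. In 27 members (34.6%) the start site of another gene on the opposite strand lay within 1000 bp upstream, against 8.81% of all genes. Respiratory chain genes (29.5%) and other genes of mitochondrial translation (23.3%) also had many such neighbours. For such a pair a promoter peak cannot be assigned to either gene. Examples, chosen after they were seen, are Twnk, the mitochondrial DNA helicase, beside Mrpl43 at 116 bp, Sars2, the mitochondrial seryl-tRNA synthetase, beside Mrps12 at 147 bp, and Zfp189, a zinc finger gene, beside Mrpl50 at 93 bp. Mrpl46 and Mrps11 faced each other with start sites 42 bp apart, so that these 2 members shared 1 promoter and 8 peaks counted within 30 kb of each, and neither had a promoter peak in any list.

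LSD1 in fed muscle was at 19 of the 27 members with such a neighbour (70.4%, 49.8 to 86.3%) and at 16 of the 51 without (31.4%, 19.1 to 45.9%). Over all genes the shares were 56.2% with and 22.4% without a neighbour. GR after starvation was at 16 of 27 (59.3%, 38.8 to 77.6%) and 19 of 51 (37.3%, 24.1 to 51.9%), against 57.7% and 22.9% of all genes. LSD1 after starvation was at 9 of 27 (33.3%, 16.5 to 54.0%) and 13 of 51 (25.5%, 14.3 to 39.6%), against 35.5% and 16.3%. Only for LSD1 in fed muscle did the intervals of members with and without a neighbour not overlap. For GR in fed muscle the members with a neighbour showed no such lead, with 7 of 27 (25.9%, 11.1 to 46.3%) and 15 of 51 (29.4%, 17.5 to 43.8%), whereas all genes had 32.0% and 13.5%. The part of the many bidirectional promoters in the members' shares was not tested.

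Motifs were searched on both strands of the promoter window, and none of them is contained in another. The ETS motif CCGGAAG was in 39 of 78 member promoters (50%, 38.5 to 61.5%), against 19.1% of all genes and 30.6% of CpG-rich promoters. It was in 22 of 49 Mrpl (44.9%) and 17 of 29 Mrps genes (58.6%). The cytosolic ribosome (46.2%) and the proteasome (41.0%) were near the members, and the respiratory chain (28.4%) was lower. The sites clustered at the start, with 39 of the 47 distinct sites in members (83.0%) within 100 bp, against 55.4% of the sites over all genes.

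The NRF1 motif, as capitalised in the sequences above, was in 3 members (3.85%, 0.800 to 10.8%), against 1.75% of all genes, 3.42% of CpG-rich promoters and 7.95% of respiratory chain genes. With 1 mismatch allowed it was in 21 members (26.9%, 17.5 to 38.2%), against 12.1%. CpG-rich promoters (23.9%), respiratory chain genes (35.2%), other genes of mitochondrial translation (25.6%) and the cytosolic ribosome (17.9%) were within the members' interval. The proteasome (15.4%) was below it. The SP1 motif GGGCGG was in 51 members (65.4%), against 60.2%, and the YY1 motif AAGATGG in 24 (30.8%), against 23.8%. A GR element, with AGAACA and TGTTCT spaced by 3 bases and up to 1 mismatch, was in none of the members (interval up to 4.62%) and in 0.724% of all genes.

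**Figure D5:**
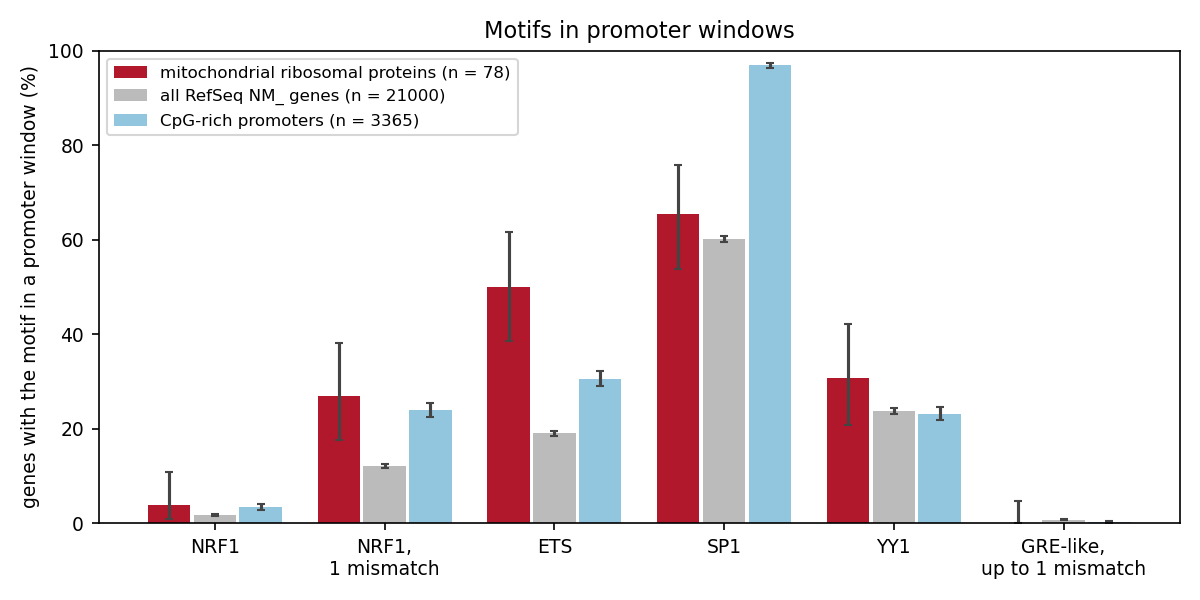
Percentage of genes with a motif in a promoter window, for the 78 members, all 21000 RefSeq NM_ genes and the 3365 genes with CpG-rich promoters. Bars start at 0 and error bars are exact 95% binomial intervals. The gap between members and all genes is widest for the ETS motif, at 50% against 19.1%, and no member holds a GR-like element.

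The ETS motif was in a numerically higher share of the members' peaks than of all promoter peaks. The members' interval lay above the share over all peaks in GR starved (23.9 to 57.9%) and LSD1 fed (15.4 to 45.9%). It held that share in GR fed (13.9 to 54.9%) and LSD1 starved (4.95 to 38.8%). The motif's higher share in the members' promoter windows was not taken into account. Of the promoter peaks at members, 7 of 22 in GR fed (31.8%), 14 of 35 in GR starved (40%), 11 of 38 in LSD1 fed (28.9%) and 4 of 23 in LSD1 starved (17.4%) contained the ETS motif, against 16.9%, 19.1%, 15.1% and 9.96% of all promoter peaks of the same list. The SP1 motif went the other way, being numerically less common in the members' peaks than in all promoter peaks. Its shares were 59.1% against 68.4% in GR fed and 48.6% against 69.2% in GR starved. For LSD1 they were 36.8% against 59.0% in fed and 30.4% against 45.9% in starved muscle. The share over all peaks lay above the members' interval in GR starved and LSD1 fed. It lay inside in GR fed (36.35 to 79.29%) and LSD1 starved (13.21 to 52.92%). The members' peaks had a lower median length in LSD1 fed (186 bp against 231 bp) and LSD1 starved (132 bp against 159 bp). It was also lower in GR starved (357 bp against 372 bp), but higher in GR fed (374 bp against 315 bp). Peak length was not taken into account. None of the members' peaks in these lists held a GR-like element, which was also rare in all promoter peaks, at 0.403% in GR fed and 0.249% in GR starved.

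H3K9me2 in fed muscle and LSD1 in fed muscle were together at 11 member promoters (14.1%), against 11.2% of all genes. Where LSD1 was present, 11 of 35 members carried H3K9me2 (31.4%, 16.9 to 49.3%), and where it was absent, 12 of 43 did (27.9%, 15.3 to 43.7%), while all genes had 44.2% with and 17.6% without LSD1. The peaks themselves seldom coincided at members, since 5 of 38 LSD1 fed promoter peaks overlapped an H3K9me2 fed peak by at least 1 bp (13.2%, 4.41 to 28.1%), against 27.5% of all LSD1 fed promoter peaks, a value inside the interval. Beside Mrpl42, the highest H3K9me2 fed values among promoter peaks of members were those of Mrps21 (4.29) and Mrpl14 (3.68).

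H3K9me1 peaks at promoters were uncommon among members (5.13% in each condition) as among all genes (2.08% in fed and 3.2% in starved muscle). Their median fold at members was 3.559 in fed and 3.627 in starved muscle, against 3.758 and 3.965 over all genes. In fed muscle they were at Mrps7 (fold 3.65), Mrpl28 (3.64), Mrpl39 (3.48) and Mrps6 (3.38), and after starvation at Mrpl33 (4.52), Mrpl1 (3.75), Mrpl52 (3.51) and Mrps27 (3.45). No member was in both lists. With 4 members in each, and the share of all genes in both not computed, this says nothing particular about the members.

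Within 30 kb of a start site the lists were fuller. GR was near 43 members in fed muscle (55.1%), against 42.2% of all genes, and near 68 after starvation (87.2%), against 65.2%. LSD1 was near 59 (75.6%), against 51.5%, and near 74 (94.9%), against 81.8%. H3K9me1 was near 34 (43.6%), against 33.6%, and 56 (71.8%), against 61.6%, and H3K9me2 near all 78, against 95.1%, in fed muscle. After starvation H3K9me2 was near 3 members, Mrpl36, Mrpl44 and Mrps15 (3.85%, 0.800 to 10.8%), against 7.45% of all genes. Such a window held a median of 1 other gene for members and for all genes, so that a peak in it need not belong to the member.

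Unlike the counts at promoters, LSD1 within 30 kb was called near more members in starved muscle when the full lists were used. It was near 59 members in fed and 74 in starved muscle, whereas at the promoter it went from 35 to 22. The LSD1 starved list held 66332 peaks against 16616 in the fed list, and they were shorter, with a median length of 103 bp against 196 bp. With peaks more than 2 kb from the start sites, 42 members had LSD1 in fed (53.8%) and 67 in starved muscle (85.9%), against 36.0% and 77.2% of all genes. The order within 30 kb turned in lists of equal length, with 59 members in fed and 41 in starved muscle. It also turned when weaker peaks, those with q above 0.01, were dropped, with 37 and 22 members. All genes went the same way, from 51.5% to 40.7% and from 32% to 21.4%.

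The strongest GR peaks near members lay outside their promoters. A fold of 5 or more was reached within 30 kb of 8 members in GR fed (10.3%) and of 4 in GR starved, against 5.94% and 2.87% of all genes. Mrpl23, a homologue of a bacterial protein at the exit of the peptide tunnel, had an intergenic GR fed peak of 7.86 (q = 8.68e-38) at 25.7 kb downstream, where GR starved had 5.12, along with GR starved peaks of 6.94 at 20.3 kb and 5.37 at 22.5 kb. Mrpl37 had a GR fed peak of 7.50 at 18 kb downstream, past the end of Mrpl37 and inside another gene. For both genes the nearest NM_ start site to these peaks was their own.

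The highest of all, 9.14 in GR fed and 7.80 in GR starved, lay 21.0 kb upstream of Mrpl43, but nearest to the start of Lzts2. A peak of 6.48 in GR fed and 6.66 in GR starved, downstream of Mrps17, was nearest to Nipsnap2, and the GR fed peak of 5.71 by Mrpl45 was nearest to Gpr179. Mrps27 (5.21 at 23.0 kb) and Mrps31 (5.02 at 21.8 kb) had 1 such GR fed peak each, with none of fold 5 or more after starvation.

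Mrpl41 stood between these classes. Its GR fed peak had a fold of 6.34 (q = 1.22e-21) and a midpoint at -1001 bp from the Mrpl41 start, 1 bp beyond the window, and 66 bp from the start of Pnpla7, a lysophospholipase gene on the opposite strand. Its GR starved peak, broader, had its midpoint at -585 bp with a fold of 5.05 (q = 8.21e-19), and the LSD1 starved peak there had 4.59. The gene therefore counts as GR starved only by midpoint, while GR fed was the stronger of the pair.

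Strong LSD1 peaks were fewer. Besides those at the Mrpl50 and Mrps15 promoters, a fold of 5 or more was found in LSD1 fed 9.83 kb from Mrpl58 (6.77, q = 1.3e-09, nearest to Atp5h), at the Lypla1 promoter 22.0 kb from Mrpl15 (5.33) and 21.7 kb from Mrpl20 (5.03, nearest to Tmem88b). In LSD1 starved such peaks lay at -8.49 kb from Mrpl22 (5.17, nearest to Gemin5) and at 24.5 kb from Mrpl3 (5.15, nearest to Mrpl3 itself). Near Mrps15 an H3K9me2 starved peak of 5.79 (q = 6.94e-06), only 49 bp long, lay 3.10 kb downstream of the start.

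Peaks of the marks with a fold of 5 or more lay within 30 kb of 7 members in H3K9me2 fed (8.97%, against 2.40% of all genes), of 3 in H3K9me1 fed (3.85%, against 1.52%) and of 7 in H3K9me1 starved (8.97%, against 5.61%). The highest values in both fed lists came from a single locus inside a gene, at -11.5 kb from the start of Mrps10. This gene encodes a small subunit protein with a bacterial homologue. The H3K9me2 fed peak there had a fold of 12.1 (q = 4.46e-27) and the H3K9me1 fed peak 5.45. Their lengths were only 55 bp and 52 bp, close to that of a 50 bp read. The median peak was 92 bp long in H3K9me2 fed and 49 bp in H3K9me1 fed. The next in H3K9me2 fed was 5.66 at 22.1 kb from Mrpl12, 56 bp long and nearest to Slc25a10. In H3K9me1 starved the highest was 6.2 at the Nubp2 promoter near Mrps34, followed by 5.82 at 6.34 kb from Mrps24. Each of these was 49 bp long.

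Other genes of mitochondrial translation, a list of further ribosomal proteins, translation factors, assembly factors and regulators of mitochondrial gene expression of which 43 of 44 were found, stand beside the members. GR was at 8 in fed (18.6%, 8.39 to 33.4%, against 15.1% of all genes) and 19 in starved muscle (44.2%, against 26.0%), and LSD1 at 16 (37.2%, against 25.4%) and 15 (34.9%, against 18.0%). Joint occupancy was seen at 3 in fed muscle (6.98%, 1.46 to 19.1%, against 10.6%), with an interval that overlapped that of the members. After starvation it was seen at 8 (18.6%, against 10.4%), and none was in all 4 lists. Tfam, the packaging factor of mitochondrial DNA, Tfb2m, a transcription factor of mitochondria, and Nrf1, the gene of the activator itself, each carried GR starved and LSD1 in both conditions, and Gabpa, which encodes the DNA-binding part of GABP, carried GR and LSD1 after starvation only. Tufm, an elongation factor, carried GR starved alone, and Polrmt, the mitochondrial RNA polymerase, had none of the 4.

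Set beside other large complexes, the members were not exceptional. Respiratory chain genes carried GR at 31.8% and 44.3% and LSD1 at 48.9% and 31.8% of 88 promoters in fed and starved muscle, each within the interval of the members. Proteasome genes, at 23.1%, 38.5%, 46.2% and 28.2% of 39 promoters in the same order, were within it as well. Genes of the cytosolic ribosome, also 78 in number, were within it for GR (26.9% and 50%). For LSD1 they were above it, at 62.8% in fed muscle (51.1 to 73.5%) and, barely, at 39.7% in starved muscle (28.8 to 51.5%). Both intervals overlapped those of the members. Only 9 genes of the cytosolic ribosome (11.5%) were in none of the 4 lists, against 23 of the members.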

How the data were processed

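Peak lists of 8 ChIP-seq libraries were analysed. Single-end reads of 50 bp had been mapped by the authors to mm10 (GRCm38) with Bowtie (the peak names carry Bowtie2), reads with 1 location were kept, and broad peaks were called per library with MACS2 against input with a fixed extension of 150 bp. The deposited lists give a ratio (fold over input), −log10 of a p-value and of a q-value, and a score that was not used. The methods name a false discovery rate of 0.01, but the weakest q-values were 0.0925 to 0.0998. The submitters' processing notes name bcl2fastq 2.20.0.422. The input libraries were used only through the authors' peak calling.

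Peaks were assigned by midpoint to 37867 NM_ transcripts of RefSeq GRCm38 with Python 3 (pandas, numpy, scipy and pysam), and the assignment was tested on simulated peaks. With 1 library per group no test was made: counts and shares of members stand beside those over all 21000 genes. Members, lists, motifs and alternatives were chosen with earlier results of these data known. The rule for values took the 5 members with the highest promoter fold in each GR and LSD1 list, the 3 highest in each list of the marks, those with an NRF1 motif or a GR or LSD1 peak of fold 5 or more within 30 kb, and a list of roles. Other members are named by pattern, as just outside the window or for a peak of a mark within 30 kb, after their values were seen. Alternatives were stricter q-values or folds, equally long lists, other windows, 1 start site per gene, merged peaks and any-base overlap. Replicates could not be left out.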

Additional observations from a re-analysis of the deposited data

Results flagged for a closer look

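The change with starvation differed in direction between GR and LSD1, a difference that was not tested. The share of members with a promoter peak moved by 16.7 percentage points for GR, from 22 to 35 genes, and dropped by 16.7 percentage points for LSD1, from 35 to 22 genes. The GR starved list held 37783 peaks against 14108 in the fed list, and the LSD1 starved list held 66332 against 16616. The part of list length in either change was not tested beyond the lists of equal length, in which GR also fell.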

How the results depend on the processing

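Values are percentages of the 78 members, and lists are named in the order GR fed, GR starved, LSD1 fed, LSD1 starved, H3K9me1 fed, H3K9me1 starved and H3K9me2 fed unless named. With the most upstream start site only, with peaks within 1 kb merged, and with any base in the window, every share stayed within its interval, and with any base the 4 median folds moved by less than the spread (SD) between members. The share of members at promoters was numerically above that of all genes in the 4 GR and LSD1 lists under every alternative tried for it except the 2 strictest, a q-value of 1e-05 and a fold of 5, where it was so in 2 of 4. At a q-value of 0.01 the interval of the members lay above the share over all genes only in GR starved.

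With a q-value of 0.01 or less, promoter shares were 10.3, 21.8, 16.7, 5.13, 0, 1.28 and 5.13, shares within 30 kb were 39.7, 59.0, 47.4, 28.2, 19.2, 38.5 and 84.6, and GR with LSD1 fell to 3.85 in fed and 1.28 in starved muscle. With a q-value of 1e-05 or less, promoter shares were 3.85, 1.28, 0, 0, 0, 0 and 0, shares within 30 kb were 23.1, 16.7, 1.28, 0, 0, 2.56 and 3.85, joint shares were 0, and starved minus fed was -2.56 points for GR, a reversal, and 0 for LSD1. With a fold of 5 or more, promoter shares were 0, 1.28, 2.56, 0, 0, 0 and 0, shares within 30 kb were 10.3, 5.13, 6.41, 2.56, 3.85, 8.97 and 8.97, and joint shares were 0.

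With equally long lists, promoter shares were 20.5 in GR starved, 8.97 in LSD1 starved, 1.28 in H3K9me1 starved and 1.28 in H3K9me2 fed, shares within 30 kb were 60.3, 52.6, 35.9 and 29.5 in the same order, the joint starved share was 1.28, and starved minus fed was -7.69 points for GR, a reversal, and -35.9 for LSD1. A window to 1 kb downstream gave 60.3 in GR starved, 12.8 in H3K9me1 starved, 42.3 in H3K9me2 fed and 24.4 for GR with LSD1 in starved muscle. Within 10 kb the shares were 37.2 in GR fed, 73.1 in GR starved, 74.4 in LSD1 starved, 20.5 in H3K9me1 fed, 38.5 in H3K9me1 starved and 93.6 in H3K9me2 fed. The NRF1 motif share was 26.9 with 1 mismatch.

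There was no replicate to leave out. No paired analysis was possible because no result comes from a test. The depth of the libraries is unknown, so a missing peak does not show absence of binding.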
